A study of Mus musculus with 20 samples.

Results

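The chromatin at 7 genes of the neural lineage, Pax6, Sox1, Neurog2, Nes, Olig2, Neurod1 and Zic1, was examined in mouse embryonic stem (ES) cells. Every accessible region (peak) of the merged ATAC-seq list that overlapped 1 of these genes or lay within 50000 bp of it was taken, which gave 65 peaks of 102373 in the list. ATAC-seq marks open DNA by the insertion of sequencing adapters by a transposase. The series analysed here, 1 part of the study, holds 20 ATAC-seq libraries, 2 for each of 10 groups. They were made from ZHBTc4 cells, in which doxycycline (dox) shuts down the endogenous Pou5f1 gene that encodes OCT4. All of these cells carried lentiviral YPet-MD and either SNAP-MD-OCT4 or SNAP-MD*-OCT4. In the first, a mitotic degron from Cyclin B1 strongly lowers the protein, without removing all of it, as cells leave mitosis for G1. In the second, the degron is mutated and inactive. The transgenes were driven by a weak PGK promoter, gave less OCT4 than wild-type cells have, and were carried by transduced populations sorted for a similar SNAP level rather than by single clones. Cells grew in serum with LIF and 2 inhibitors (CHIR99021 and PD184352). After 40 h of dox, cells of each construct were sorted by Hoechst and YPet-MD into 4 phases, EG1 and LG1 for the early and the late part of G1, then S, and SG2 for the end of S with G2. This gave 16 libraries, while the other 4 libraries were unsorted cells without dox.

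The list analysed here pools the 16 dox-treated libraries and has 3 columns with the position of each peak on its chromosome. It holds no value for any library, so MD-OCT4 could not be compared with MD*-OCT4, nor 1 phase with another, at any of the 7 genes. Sequencing depth is unknown here and no replicate error can be given. A peak present in 1 library and a peak present in every library count alike, and an accessible region is not a sign of transcription. The values below are therefore descriptions of 1 list, set beside the same quantity over all 21938 protein-coding genes or over all peaks, and none of the differences was tested.

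During neural induction, epiblast cells that leave pluripotency form the neural plate, whose cells divide as progenitors before they become neurons and glia. Sox1 is an early marker of the neural plate, and Pax6 and Zic1 are transcription factors of neural progenitors, the first a paired box and homeobox factor and the second a zinc finger factor. Nes encodes nestin, an intermediate filament protein of neural stem cells, and is known for an enhancer in its second intron. Neurog2 and Neurod1 are basic helix-loop-helix (bHLH) factors of neurogenesis and neuronal differentiation, and Olig2 is a bHLH factor of motor neuron and oligodendrocyte progenitors. Many developmental regulators of this kind start in CpG islands, which are stretches rich in the CG dinucleotide, and are held inactive by Polycomb in ES cells.

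By the median, the distal and the promoter-proximal peaks of these genes were richer in CG dinucleotides than all peaks of the same class, as given below. The distal peaks at Nes were close to the median of all distal peaks. The following stretches of 150 bases are examples and do not measure this difference. They are reference sequence of GRCm38.p6 from RefSeq, written 5′ to 3′, with each CG in capitals. All 7 genes were found in the RefSeq table of promoters, but the annotated 5′ ends differed between sources, so the stretches are placed by the GENCODE 5′ end. The upstream stretches end at the base before it.
Olig2, upstream of the 5′ end, chr16:91225307-91225456, + strand: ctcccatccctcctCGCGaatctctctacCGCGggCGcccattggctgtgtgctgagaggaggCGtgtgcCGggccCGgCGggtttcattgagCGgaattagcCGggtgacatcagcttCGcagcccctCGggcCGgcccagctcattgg
Nes, upstream of the 5′ end, chr3:87970928-87971077, + strand: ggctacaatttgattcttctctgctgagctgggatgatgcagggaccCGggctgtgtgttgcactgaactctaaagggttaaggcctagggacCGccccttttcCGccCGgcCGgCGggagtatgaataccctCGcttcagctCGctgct
Neurog2, upstream of the 5′ end, chr3:127632985-127633134, + strand: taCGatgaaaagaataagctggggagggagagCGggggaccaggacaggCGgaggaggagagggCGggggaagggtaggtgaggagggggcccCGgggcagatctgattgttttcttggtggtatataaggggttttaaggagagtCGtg
Zic1, upstream of the 5′ end, chr9:91365811-91365960, - strand: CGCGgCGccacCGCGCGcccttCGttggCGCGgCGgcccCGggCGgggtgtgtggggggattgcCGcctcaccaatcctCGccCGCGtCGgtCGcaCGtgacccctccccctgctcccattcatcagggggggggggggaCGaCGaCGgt
The stretch at Olig2 held 14 CG, that at Nes 8 and that at Neurog2 6, and all 150 bases of each lay inside a listed peak. The stretch at Zic1 held 22 CG and 0 of its bases lay in a peak, because the nearest peak began 329 bp inside the gene.

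The next stretches are the centres of distal peaks, meaning peaks over 1000 bp from any annotated TSS. The first 4 come from peaks that were CpG-island-like, here at least 200 bp wide with at least 50% GC and an observed to expected CpG ratio of at least 0.6. The last 3 come from peaks with ratios of 0.27, 0.06 and 0.13. Positions are distances from the 5′ end of the gene, negative upstream.
Neurog2, peak centred at -7578 bp, chr3:127625482-127625631, + strand: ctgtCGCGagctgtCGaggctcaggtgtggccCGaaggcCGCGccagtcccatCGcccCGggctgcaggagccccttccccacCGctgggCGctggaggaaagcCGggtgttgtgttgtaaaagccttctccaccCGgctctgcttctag
Zic1, peak centred at 9946 bp, chr9:91355789-91355938, + strand: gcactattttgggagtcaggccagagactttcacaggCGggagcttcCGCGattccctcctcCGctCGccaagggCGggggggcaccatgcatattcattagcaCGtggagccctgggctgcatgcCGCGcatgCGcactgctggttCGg
Sox1, peak centred at 35845 bp, chr8:12431065-12431214, + strand: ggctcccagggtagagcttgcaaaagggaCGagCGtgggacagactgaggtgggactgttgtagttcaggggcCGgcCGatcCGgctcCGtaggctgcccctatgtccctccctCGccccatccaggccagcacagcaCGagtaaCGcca
Olig2, peak centred at -5350 bp, chr16:91220032-91220181, + strand: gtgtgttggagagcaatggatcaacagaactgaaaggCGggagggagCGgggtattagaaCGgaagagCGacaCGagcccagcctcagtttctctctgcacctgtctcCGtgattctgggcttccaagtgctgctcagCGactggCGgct
Nes, peak centred at 3478 bp, chr3:87974481-87974630, + strand: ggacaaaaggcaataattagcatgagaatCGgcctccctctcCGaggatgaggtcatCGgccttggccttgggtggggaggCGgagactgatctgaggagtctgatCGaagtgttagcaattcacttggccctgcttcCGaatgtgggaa
Nes, peak centred at -12789 bp, chr3:87958214-87958363, + strand: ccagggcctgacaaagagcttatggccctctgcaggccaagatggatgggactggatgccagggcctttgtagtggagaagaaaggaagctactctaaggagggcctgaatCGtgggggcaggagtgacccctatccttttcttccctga
Sox1, peak centred at 50798 bp, chr8:12446018-12446167, + strand: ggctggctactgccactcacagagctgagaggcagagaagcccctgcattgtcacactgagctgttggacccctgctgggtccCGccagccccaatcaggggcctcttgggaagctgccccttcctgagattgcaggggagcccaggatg
The first 4 centres held 12, 11, 9 and 8 CG. The peak in intron 2 of Nes held 6, and the last 2 peaks held 1 each.

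To ask how the 65 peaks were arranged, they were placed by distance from the 5′ end of each gene. Pax6 (chr2:105668900-105697364, + strand) had 12 peaks, Sox1 (chr8:12395295-12400126, + strand) 11 and Nes (chr3:87971078-87980451, + strand) 15. Olig2 (chr16:91225457-91228677, + strand) had 9, Zic1 (chr9:91358058-91365810, − strand) 7, Neurog2 (chr3:127633135-127635631, + strand) 6 and Neurod1 (chr2:79452521-79456751, − strand) 5. Of the 65 peaks, 33 were distal (50.8%) and 32 promoter-proximal, where 74.9% of all peaks were distal. The 65 were taken for lying in or near genes, while all peaks include those far from any gene, so these shares are not from like sets. In windows of 50000 bp around the 5′ end, the medians were 5 distal peaks and 9 peaks in all. All protein-coding genes had 4 and 7. With the TSS of protein-coding transcripts alone, 45 of 65 were distal (69.2%) against 82.4% of all peaks, so a number of the proximal peaks lay at starts of non-coding transcripts. The centres of the distal peaks fell between genes in 18 cases, in introns in 12, in exons of non-coding genes in 2 and in a coding exon in 1.

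**Figure D1:**
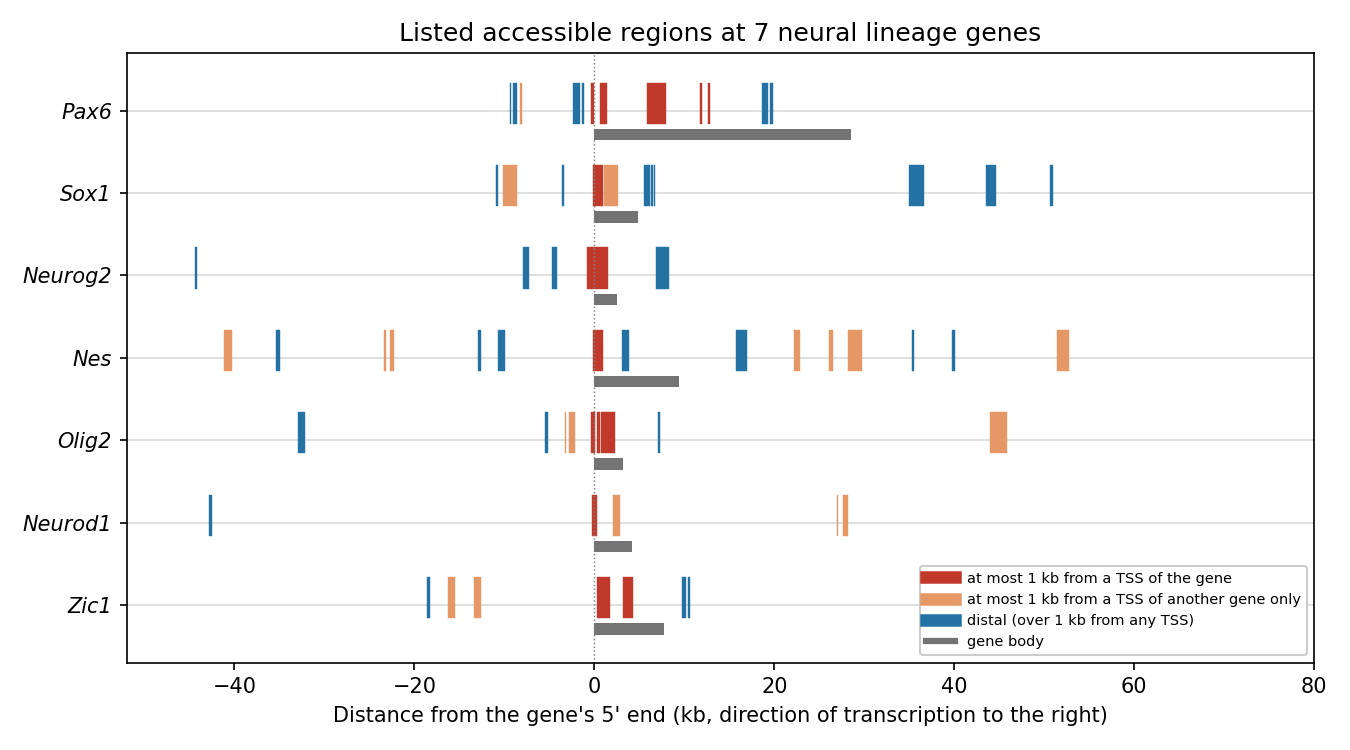
Position of the 65 listed peaks at the 7 genes, in kb from the 5′ end with transcription running to the right. Bars are peaks drawn to scale, red at most 1 kb from a TSS of the gene, orange at most 1 kb from a TSS of another gene only and blue distal, with the gene body in grey. Pax6 peaks stop within 20 kb of its 5′ end, while 12 of the 15 peaks at Nes are nearer to the 5′ end of another protein-coding gene.

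A window of 50000 bp holds other genes too, and with 1 annotated 5′ end for each protein-coding gene, the nearest 5′ end belonged to the gene itself for 46 of the 65 peaks. This held for 12 of 12 peaks at Pax6 and 11 of 11 at Sox1, but for 3 of 15 at Nes. There, 6 peaks were nearest to the 5′ end of Bcan, which encodes the brain proteoglycan brevican, 3 to Crabp2, and 1 each to Hapln2, Isg20l2 and Rrnad1. At Neurod1, 2 of 5 peaks were nearest to Cerkl, at Zic1 3 of 7 to its divergent neighbour Zic4, at Olig2 1 of 9 to Olig1 and at Neurog2 1 of 6 to Zgrf1. Other transcripts start elsewhere, and these counts leave that out: 2 more peaks at Neurod1 lay 674 and 0 bp from a TSS of Cerkl, and 2 more at Zic1 lay at most 1000 bp from a TSS of Zic4. Of the 2 counted to Cerkl, 1 is the promoter peak of Neurod1, which lay over the 5′ ends of both genes. The 12 other peaks at Nes were thus nearer to the 5′ end of a neighbour.

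With a window of equal size around each 5′ end, the 7 genes had a median of 9 peaks, against 7 for all protein-coding genes (quartiles 3 and 12). Nes had 14 peaks in this window, Pax6 12, Sox1 10, Olig2 9, Zic1 7, Neurog2 6 and Neurod1 5. Placed among all protein-coding genes, with ties counted at their middle, these counts ran from percentile 37.7 for Neurod1 to 84.9 for Nes. All 7 counts but that of Nes thus lay within the quartiles of all genes or at their edge. Distal peaks alone gave a median of 5 against 4. Peaks covered 9.38% of the window at Nes, 8.53% at Sox1, 6.43% at Pax6, 6.28% at Olig2, 5.30% at Neurog2, 5.04% at Zic1 and 2.35% at Neurod1, where the median of all genes was 4.12%.

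The peaks lay close to the genes. Within 10 kb of the 5′ end, Pax6 had 8 peaks, Sox1 7, Olig2 7, Neurog2 5, Nes 3, Zic1 3 and Neurod1 2, with a median of 5 against 2 for all protein-coding genes. Within 20 kb the median was 7 against 3, and within 100 kb it was 13 against 14. Pax6 had all of its 12 peaks within 20 kb and gained none up to 50 kb. Zic1 had 7 within 20 kb and still 7 within 100 kb, whereas Nes rose from 5 within 20 kb to 23 within 100 kb, a stretch that takes in its neighbours. Neurod1 was at the median of all genes at 10 kb and below it at 20 kb, with 2 peaks.

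**Figure D2:**
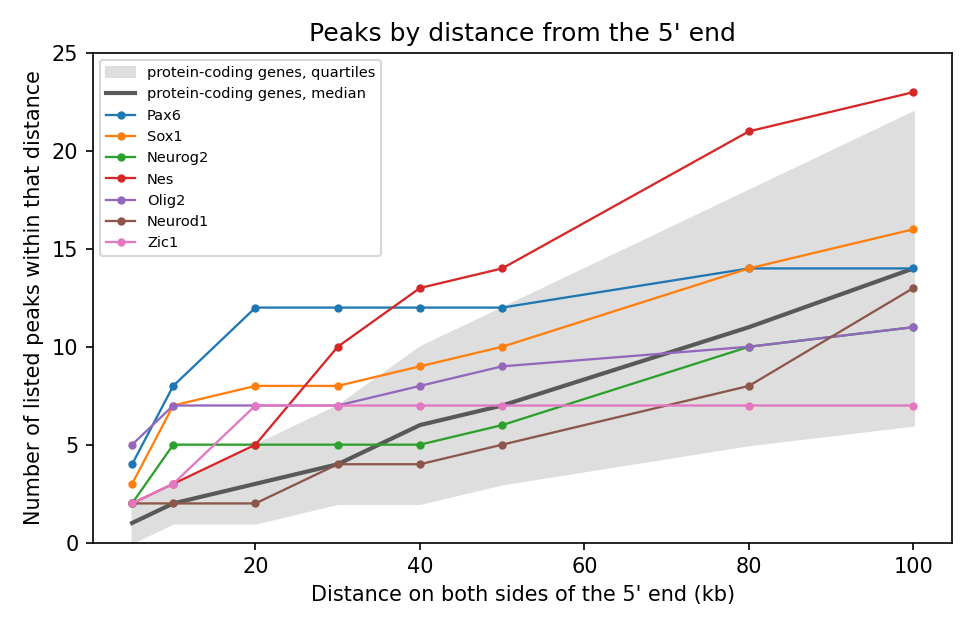
Number of listed peaks (y axis) within a given distance on both sides of the 5′ end (x axis, kb) for each of the 7 genes, with the median (dark line) and quartiles (grey) of 21938 protein-coding genes. The median over the 7 genes is 7 at 20 kb, where all genes have 3, and 13 at 100 kb, where all genes have 14.

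The promoters of the 7 genes were examined next, which cannot check the label of neural lineage. All 7 genes had a peak at most 1000 bp from the annotated 5′ end, which 66.1% of protein-coding genes had. In 5 of the 7 the peak lay over the 5′ end itself (58.8% of protein-coding genes). The exceptions were Pax6, whose nearest peak ended 22 bp upstream, and Zic1, whose nearest peak began 329 bp downstream.

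Promoter peak width was taken as that of the widest peak at most 1000 bp from the 5′ end. It was 2369 bp at Neurog2, 1512 bp at Olig2, 1454 bp at Zic1 and 1115 bp at Sox1. Nes had 1081 bp, Pax6 698 bp and Neurod1 504 bp. This is not always the peak nearest to the 5′ end. At Olig2 it lay 777 bp away, and the peak over the 5′ end was 451 bp wide. At Pax6 it lay 654 bp away, and the peak 22 bp upstream was 322 bp wide. Over the 14498 protein-coding genes with such a peak the median was 1090 bp, with quartiles of 863 and 1337 bp. The peak at Neurog2 (chr3:127632305-127634673) covered the 5′ end, was centred in intron 1 and was at percentile 99.2 of these genes, whereas that at Neurod1 was at percentile 7.64. Sox1 and Nes lay near the median, at percentiles 53.0 and 49.0. Neurog2 and Neurod1, which act at successive steps of neurogenesis, thus stood at opposite ends of the scale. How many libraries contributed to each merged peak cannot be read from the list.

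**Figure D3:**
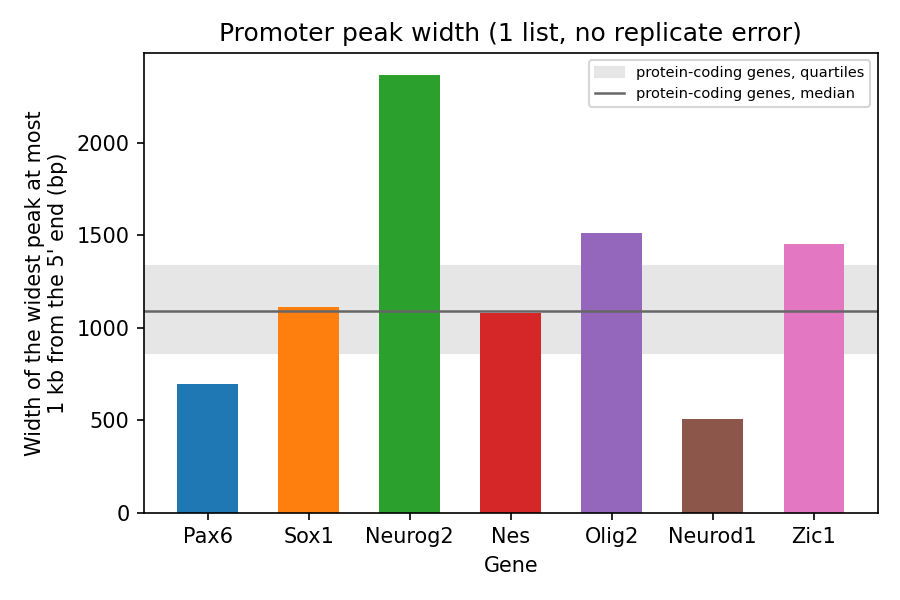
Width in bp of the widest listed peak at most 1 kb from the 5′ end of each gene, 1 value per gene with no replicate error. The line and grey band are the median of 1090 bp and the quartiles of 863 and 1337 bp of 14498 protein-coding genes. Neurog2 stands above the band at 2369 bp, and Pax6 and Neurod1 stand below it.

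The widest peak of Pax6 was not at its 5′ end. It measured 2107 bp (chr2:105674707-105676813), lay 5807 bp from the 5′ end and covered an internal TSS of Pax6, so it was promoter-proximal by the annotation. Its centre was in an untranslated exon. Peaks of 209 and 215 bp lay further inside the gene, at 777 and 8 bp from an internal TSS, and a pair of distal intronic peaks of 596 and 337 bp lay at 18961 and 19650 bp, separated by 222 bp. Upstream, peaks of 188, 491 and 174 bp were centred in exons of Paupar or Pax6os1, non-coding genes that run beside Pax6 and both span these centres. Peaks of 787 and 306 bp were centred at -2025 and -1264 bp in an intron of Pax6os1. Accessible DNA at Pax6 was thus spread over several annotated starts in short peaks, with a median width of 330 bp over the 12.

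Sox1 showed the reverse arrangement, with 5 of its 11 peaks wider than 1000 bp. A peak of 1115 bp covered the 5′ end and a second of 1516 bp lay over the coding exon, 154 bp away. Another of 1547 bp covered a TSS of Sox1ot, the long non-coding transcript that overlaps Sox1. Both remaining wide peaks were distal and downstream, 1677 bp at 35845 bp (chr8:12430302-12431978, in an intron of Sox1ot) and 1119 bp at 44082 bp (chr8:12438818-12439936, intergenic). They were among the 3 distal peaks over 1000 bp at the 7 genes, 3 of 33 (9.09%) where all distal peaks had 4.30%. The third was the peak of 1169 bp at 16363 bp from Nes, nearest to Bcan. Over both classes, 15 of 65 peaks were wider than 1000 bp (23.1%), against 12.4% of all peaks. This pooled share mixes the classes, since 49.2% of the 65 peaks were promoter-proximal against 25.1% of all peaks. Over all peaks, the promoter-proximal class was the wider, with a median of 815 bp against 352 bp for distal peaks. The promoter-proximal peaks at the 7 genes had a median of 740 bp, so they were not wider than their class. A cluster of 3 distal peaks of 666, 308 and 193 bp lay between 5850 and 6691 bp from the 5′ end of Sox1, with gaps of 72 and 31 bp.

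Nes itself held 2 peaks, 1 of 1081 bp over the 5′ end and 1 of 759 bp in intron 2 (chr3:87974177-87974935), centred at 3478 bp. The latter fell in the intron in which the neural enhancer of Nes is known, but whether it covers that element was not tested. Its observed to expected CpG ratio of 0.27 was close to the median of 0.22 of all distal peaks, and the stretch of it printed above shows 6 CG. Its central 300 bp matched the E-box CAGATG and no other motif searched. The other distal peaks nearby, at -12789 and -10301 bp, were 263 and 776 bp wide.

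At the bHLH genes, Olig2 had 3 peaks at its own TSS, of 451, 268 and 1512 bp, separated by 300 and 164 bp, the last over the coding exon. A peak of 1921 bp lay over Olig1, its paralog downstream, centred at 44899 bp. Olig2 had 3 distal peaks, of 721, 295 and 218 bp. Neurog2 had 1 proximal peak and 5 distal ones, of 234, 679, 543, 736 and 742 bp. The last 2 of these lay at 7172 and 7939 bp with 28 bp between them, and read as 1 region when peaks at most 100 bp apart are joined. Neurod1 had a single distal peak, of 346 bp at -42695 bp, and 4 proximal ones, of which 3 lay at starts of other genes only. At Zic1, a peak of 1454 bp lay over exon 1 and one of 1036 bp inside the gene at a TSS of Zic1 and Zic4. Peaks of 737 and 792 bp upstream lay at TSS of Zic4, and the 3 distal peaks were 270, 472 and 281 bp wide.

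Distal peaks at the 7 genes had a median width of 394 bp (quartiles 265 and 721), against 352 bp (216 and 566) for all distal peaks. Their median GC content was 55.3% against 48.6%, and their median observed to expected CpG ratio was 0.45 against 0.22, above the upper quartile of 0.33 of all distal peaks. The promoter-proximal peaks moved the same way by less, with GC contents of 61.4% against 57.4% and ratios of 0.73 against 0.58. The median repeat content of the distal peaks was 8.14% against 12.4%, and 1 of 65 peaks was at least 50% repeat, where 11.3% of all peaks were.

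CpG-island-like sequence made up 6 of the 33 distal peaks (18.2%), where 2.47% of all distal peaks met the same limits. These were 2 at Sox1 (ratios 0.62 and 0.65), 2 at Zic1 (0.91 and 0.66), 1 at Neurog2 (0.75) and 1 at Olig2 (0.71). The peak at Zic1 with 0.91 was centred in a coding exon of Zic4, the neighbouring gene, and lay 1724 bp from the nearest TSS. Just outside the limits lay a distal Pax6 peak whose ratio fell short of the limit but rounds to 0.60, and another with a ratio of 0.62 but a GC content of 46.3%. Nes, Pax6 and Neurod1 had 0 such distal peaks out of 7, 6 and 1. The distal peaks at Nes had a median ratio of 0.24, close to that of all distal peaks, and those at Zic1 one of 0.66. Among proximal peaks, 24 of 32 were CpG-island-like (75%) against 45.9% of all proximal peaks. Several of these peaks share a locus, so the 33 are not 33 separate loci. They were also taken for lying in or near genes, which all distal peaks were not. The shares and medians of distal peaks are therefore not from like sets.

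**Figure D4:**
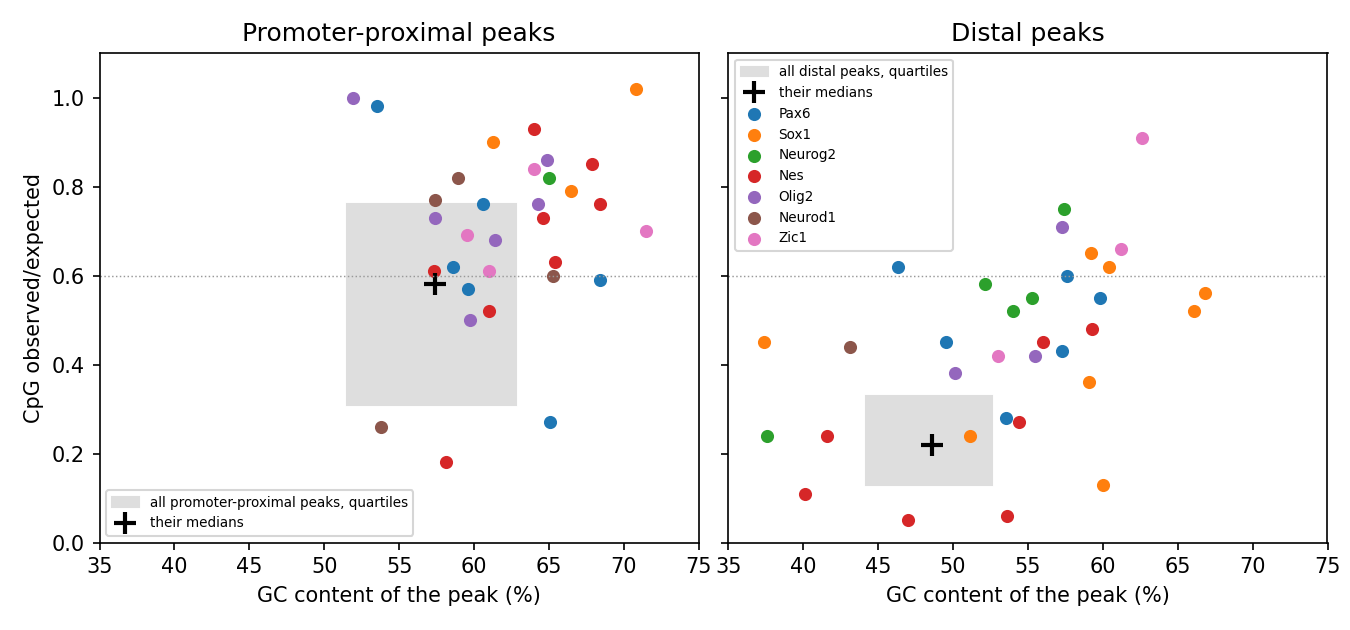
Observed to expected CpG ratio (y axis) against GC content (x axis, %) of each of the 32 promoter-proximal and 33 distal peaks, 1 point per peak, coloured by gene as in the right panel. The grey box and cross are the quartiles and medians of all peaks of that class, and the dotted line is the ratio of 0.6. Most distal points lie above the box, whose upper edge is 0.33, and 4 distal peaks at Nes lie at or below a ratio of 0.24.

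To ask which factors' sequences these peaks held, 9 short motifs were searched on both strands in the central 300 bp of each peak. For peaks narrower than 300 bp, 19 of the 65, this window runs past the peak. A match describes letters and is not a binding site. The octamer ATGCAAAT, bound by OCT4 and other POU factors, was in 0 of the 33 distal peaks, against 1.92% of all distal peaks. The OCT4::SOX2 composite, CNTTGTN directly followed by ATGCAAAT with up to 2 mismatches, was in 0 against 1.26%. The ESRRB motif TCAAGGTCA was in 0 against 2.29%. If the 33 peaks were independent, a count of 0 would allow a share of up to 9.09% at the 95% level. Several of them share a locus, so the limit may be higher. At the share of all distal peaks, 33 peaks would hold 0.63, 0.42 and 0.75 matches, so no difference was detectable at this number of peaks.

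Over the whole length of the peaks, exact octamers stood in 4 of them, each printed here with 7 bases on both sides and the octamer, whose coordinates are given, in capitals. They are shown because OCT4 is the factor that the study manipulated.
Sox1, OCT at 245 bp, chr8:12395537-12395544, + strand: gcgcgccATGCAAATcaccgcc
Sox1, OCT at 43933 bp, chr8:12439225-12439232, + strand: ttagttaATGCAAATtggatat
Neurog2, OCT at 7419 bp, chr3:127640551-127640558, - strand: gctgattATGCAAATacccatt
Pax6, OCT at 6541 bp, chr2:105675438-105675445, - strand: ccgcaacATGCAAATgcaccgc
The first lay in the promoter peak of Sox1 and was within its central 300 bp. The second and the third lay in distal peaks, which gave 2 of 33 (6.1%) over whole peaks where all distal peaks had 2.52%. The last lay in the widest peak of Pax6, away from its centre.

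The SOX core, CATTGT or CTTTGT, which partly overlaps the composite, was in 9 of 33 distal peaks (27.3%) against 43.2% of all. Over whole peaks it was in 14 of 33 (42.4%) against 49.5%, a smaller difference. The GC box GGGCGG, bound by SP and KLF factors, was in 8 (24.2%) against 12.2%. The GC content of these peaks moved with both results, as given above, and its part in them was not tested. The E-box CAGATG, of the kind bound by neurogenic bHLH factors, was in 5 (15.2%) against 22.3%, and the E-box CAGCTG was in 5 (15.2%) against 18.7%. Over whole peaks the order turned for CAGCTG, with 30.3% against 24.2%. Among the 32 proximal peaks, CAGCTG was in 11 (34.4%) against 18.9% and SOX in 2 (6.25%) against 24.1%. A short form of the CTCF motif, CCANNAG and GGC 2 bases apart with up to 1 mismatch, was in 16 distal peaks (48.5%) against 38.1%, a share that shows how loose this pattern is.

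RE1 is the element through which REST represses neuronal genes in non-neuronal cells. Its motif, TTCAGCACC and GGACAG 2 bases apart with up to 3 mismatches, was in 2 of 33 distal peaks (6.06%) against 2.07%, and in 3 of 32 proximal peaks (9.38%) against 2.14%. Over whole peaks the distal count was 1 of 33 (3.0%) against 2.71%. The distal matches were at Pax6 and Sox1, with 3 mismatches each, and the latter ran past the end of its peak. Of the proximal ones, 1 was at Neurod1 and 2 were at Bcan beside Nes. Those with up to 2 mismatches are shown, with the 17 bases of the element, whose coordinates are given, in capitals.
Nes, RE1 at 22591 bp, chr3:87993661-87993677, + strand: agacagTTCAGCACCAGGGACAGcgcccc
Nes, RE1 at 26414 bp, chr3:87997484-87997500, - strand: atcaaaTTCAGGACCCTGGGCAGtgctca
Neurod1, RE1 at 2412 bp, chr2:79454331-79454347, - strand: ccgcccTACGGCACCATGGACAGctccca
The first matched every letter and lay 22591 bp from the 5′ end of Nes, in a peak centred in a coding exon of Bcan. The second and the third had 2 mismatches, and the third lay in the peak over exon 2 of Neurod1.

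Other genes of neural development gave the setting. Of 47 such genes, 42 had a peak at most 1000 bp from the 5′ end (89.4%, against 66.1% of protein-coding genes), with a median of 8 peaks within 50 kb and a median promoter peak width of 1364 bp. The peak was present at 15 of 16 neural plate transcription factors, 9 of 9 bHLH factors, 6 of 6 patterning factors, 3 of 4 progenitor proteins, 5 of 7 neuronal proteins and 4 of 5 glial proteins. The median widths of the promoter peaks were 1392 bp for the neural plate factors, 1535 bp for the bHLH factors and 1754 bp for the patterning factors, but 615 bp for the neuronal and 595 bp for the glial proteins. The peak of 504 bp at Neurod1 was narrower than the median of every one of these lists. Most peaks were found around Sox21 (20), which encodes a SOX factor of progenitors, Msi1 (16), which encodes an RNA-binding protein, and the bHLH gene Neurod2 (16).

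Fabp7, Dcx, Rbfox3 and S100b were among the genes without a promoter peak. Dcx, which encodes doublecortin of migrating neurons, had 0 peaks within 50 kb and its nearest peak at 109047 bp. Fabp7, a fatty acid binding protein of radial glia, and S100b, a calcium-binding protein of astrocytes, had 2 peaks each, the nearest at 9271 and 15633 bp. Rbfox3, which encodes the neuronal splicing factor NeuN, also had 2, the nearest at 1725 bp. Unlike the other genes just named, Rbfox3 had a listed peak over another of its annotated TSS. The bHLH gene Neurod4 was also among those with the fewest, with 2 peaks, but had a promoter peak of 581 bp. With every TSS of each gene counted, 44 of the 47 had a peak. Some of these genes are neighbours, such as Olig1 and Olig2, and share peaks.

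Genes of other lineages gave similar ranges. All 8 mesoderm genes had a promoter peak, with a median of 11 peaks (5 to 17) and a median promoter width of 1157 bp. Of 8 endoderm genes 5 had one, with a median of 6 peaks (1 to 10) and a width of 1129 bp. With every TSS of each gene counted, 7 of the 8 endoderm genes had a peak. The range of the 7 neural lineage genes, 5 to 14 peaks, overlapped both.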

How the data were processed

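ATAC-seq libraries of ZHBTc4 cells were grouped by construct, dox and phase from their labels. According to the study's methods and the submitters' processing notes, the authors aligned reads to mm10 (GRCm38) with STAR 2.6.1c, removed duplicates with Picard, called peaks with MACS2 2.1.1.20160309 in paired-end mode and merged peaks of the dox-treated libraries with bedtools. The deposited file holds peak coordinates only (0-based starts, converted to 1-based) and neither counts nor signal. The methods name filters on width over 5000 bp, on input peaks and on blacklisted regions. The list still holds 7 peaks over 5000 bp, 0 of them at the 7 genes, and it was not established whether the other filters were applied. Merging of 16 libraries can widen peaks and join neighbours.

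Genes and TSS were from GENCODE M21, and sequence was from RefSeq GRCm38.p6, the same build. Each protein-coding gene counted once, at its 5′ end, and intron and exon numbers follow the principal transcript. GC, CpG ratio (CG count times length over C count times G count) and soft-masked repeats were computed over whole peaks. All-gene and all-peak values include the 7 genes. Other neural genes named are the 3 with the most and the 3 with the fewest peaks, ties in alphabetical order, and those without a promoter peak, of which 1 is not reported here. The members and lists were chosen with earlier results of these data known. No test was run, because 1 pooled list has no replicates. Counting and motif search were tested on simulated data. Alternatives changed the window, the TSS set, the minimum width, the joining of peaks, the motif window and the mismatches. Python 3.11.15, NumPy 2.4.6 and Matplotlib 3.10.9 were used.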

Additional observations from a re-analysis of the deposited data

How the results depend on the processing

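Of 38 alternative settings, 32 left a value within 1.5 times of the reported count or within its interval, and 6 moved it. The intervals are not given here. The score took the value of the examined genes alone, so it does not say whether the order against all genes or all peaks held. The number of peaks was 99 with 100000 bp on both sides. The median per gene was 5.0 for distal peaks only, where all protein-coding genes had 4.00, and 5.0 for peaks of at least 300 bp, where they also had 5.00. The octamer was in 24.2% of distal peaks with up to 1 mismatch, against 23.2% of all distal peaks. In the central 200 bp the E-boxes CAGATG and CAGCTG were each in 6.1%, against 15.4% and 13.0%.

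No paired analysis was possible because replicates have no values of their own in a pooled list, and for the same reason no replicate was left out. Depth is unknown here, and it limits which regions were called as peaks.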
